A study of Mus musculus with 6 samples.

Results

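The Hippo pathway genes and the target genes of its effector YAP were examined as a set of 34 genes, 18 pathway components and 16 targets, read by gene symbol from a table of 24930 genes. All 34 symbols were present, the CCN pair as Ccn1 (formerly Cyr61) and Ccn2 (formerly Ctgf). Messenger RNA had been sequenced from primary mouse intestinal crypts, the pits of the gut lining where its stem cells sit. The β-catenin GOF/+ group had 3 libraries, made 4 days after induction of 1 gain-of-function β-catenin allele, and the control group had 3 libraries, also of day 4. The labels give no strain, age, inducing agent or driver of the allele, nor do they say how many animals stand behind each group. By sex-linked genes, each group held libraries of both sexes, so its libraries did not all come from the same animal. The p-values rest on library-to-library spread, part of which may be technical. The values are a normalized abundance per gene, called units here. They fall in steps inversely proportional to transcript length, so levels were compared between genes on a per-length scale.

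The Hippo pathway is a kinase cascade that limits tissue growth. MST kinases (Stk3 and Stk4) with the scaffold SAV1 activate the LATS kinases and their cofactor MOB1, and LATS phosphorylates the co-activators YAP and TAZ, which keeps them in the cytoplasm. Unphosphorylated YAP and TAZ enter the nucleus, bind TEAD transcription factors and raise target genes such as Ccn1, Ccn2 and Ankrd1. In the intestinal epithelium YAP is known for its part in regeneration after injury and in the return of a fetal-like state, and the series text names regenerative and fetal-like signatures as the question of the comparison.

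None of these genes passed the test between β-catenin GOF/+ and control crypts. Of the 34 genes, 25 averaged 1 unit or more across the 6 libraries and were tested with limma on log2(units + 1), with adjustment over all 11837 genes tested. Of these 25, the number past an adjusted p of 0.05 was 0 upward and 0 downward, against 0.0169% of all genes tested. At an unadjusted p under 0.05 the count was also 0 of 25, against 8.31% of all genes tested, and adjusted p-values ran from 0.590 to 0.978 in limma. The values of the 2 groups did not overlap for 5 of the 25 genes, or 20.0%, against 16.7% of all genes tested. Among the 5, Ccn1 reached the mean of 1 unit through the β-catenin GOF/+ libraries alone. The gap for Sav1 was smaller than the digits printed.

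The third β-catenin GOF/+ library was the highest of 6 for 29.7% and the lowest for 36.4% of all genes tested. It stood apart from the other 5 in the mean of the tested targets and in other lists, but not in the mean of the components. Log2 differences beyond 0.15 in size that it moved by more than 1.5 times are therefore given with and without it. For the 25 tested genes of the set, other libraries are named where leaving them out did the same. Depth was not given as counts, and is known only relative to β-catenin GOF/+ replicate 1: a unit stood for 0.889 times as many reads in β-catenin GOF/+ replicate 3 and for 1.00 to 1.43 times as many in the other 4 libraries, and estimates of total reads from transcript lengths put replicate 3 lowest. By Xist and Y-linked genes, β-catenin GOF/+ replicates 2 and 3 and control replicate 3 were female and the other 3 libraries male. Epithelial marker genes such as Epcam, Cdh1 and Krt8 summed to between 5617 and 8477 units in β-catenin GOF/+ libraries and between 4842 and 6176 units in control libraries, with all 8 markers detected. Paneth cell genes summed to between 35530 and 158400 units in β-catenin GOF/+ libraries and between 94420 and 350000 units in control libraries. β-Catenin GOF/+ replicate 3 had the lowest Paneth sum and the highest epithelial sum. Less RNA per cell and fewer cells of a type cannot be told apart in such bulk samples.

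Of the 2 co-activators, Yap1 carried nearly all of the message. Yap1, which encodes YAP, had 21.3, 21.3 and 23.1 units in β-catenin GOF/+ libraries against 21.3, 27.7 and 18.5 units in control libraries. The β-catenin GOF/+ values lay inside the control range, and the log2 difference was -0.018 ± 0.17 (SE; adjusted p = 0.973 in limma). Wwtr1, which encodes TAZ, had 0.244, 0.202 and 0.223 units in β-catenin GOF/+ libraries against 0.455, 0.324 and 0.157 units in the controls. It fell below the mean of 1 unit needed for testing. Yap1 stood above Wwtr1 in 6 of 6 libraries, by 46.8 to 118 times.

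The 4 TEAD genes, whose proteins bring YAP to DNA, kept the same order of level in 6 of 6 libraries: Tead3, Tead1, Tead2, Tead4. Tead3 had 12.3, 12.9 and 12.2 units in β-catenin GOF/+ libraries against 14.3, 10.9 and 11.3 units in control libraries. Tead1 had 5.39, 4.98 and 4.795 units in β-catenin GOF/+ libraries against 6.14, 8.52 and 3.19 units in control libraries. The ratio of Tead3 to Tead1 lay between 1.28 and 3.53, and the lowest ratio came from control replicate 2, where Tead1 was highest. Both groups overlapped for these genes, with log2 differences of 0.042 ± 0.14 for Tead3 and -0.12 ± 0.29 for Tead1 (SE; adjusted p of 0.920 and 0.881 in limma).

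Tead2 had 0.981, 2.69 and 1.12 units in β-catenin GOF/+ libraries against 2.45, 2.52 and 2.01 units in control libraries. β-Catenin GOF/+ replicates 1 and 3 lay below every control library while replicate 2 lay above them, and the log2 difference was -0.41 ± 0.27 (SE; adjusted p = 0.605 in limma). It was -0.25 without β-catenin GOF/+ replicate 1 and -0.69 without replicate 2 (adjusted p of 0.735 and 0.304 in limma). Tead4 was the lowest of the family, at 0.237, 0.311 and 0.587 units in β-catenin GOF/+ libraries against 0.545, 0.265 and 0.332 units in the controls, and it was not tested. Vgll4, a co-repressor that competes with YAP for TEAD, was among the more abundant genes of the set. It had 19.3, 23.1 and 11.8 units in β-catenin GOF/+ libraries against 24.9, 27.3 and 17.4 units in control libraries. Its lowest value was in β-catenin GOF/+ replicate 3, and the log2 difference was -0.37 ± 0.28 with all libraries and -0.11 without that library (SE; adjusted p of 0.628 and 0.974 in limma). It was -0.56 without β-catenin GOF/+ replicate 2 and -0.25 without control replicate 2.

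**Figure D1:**
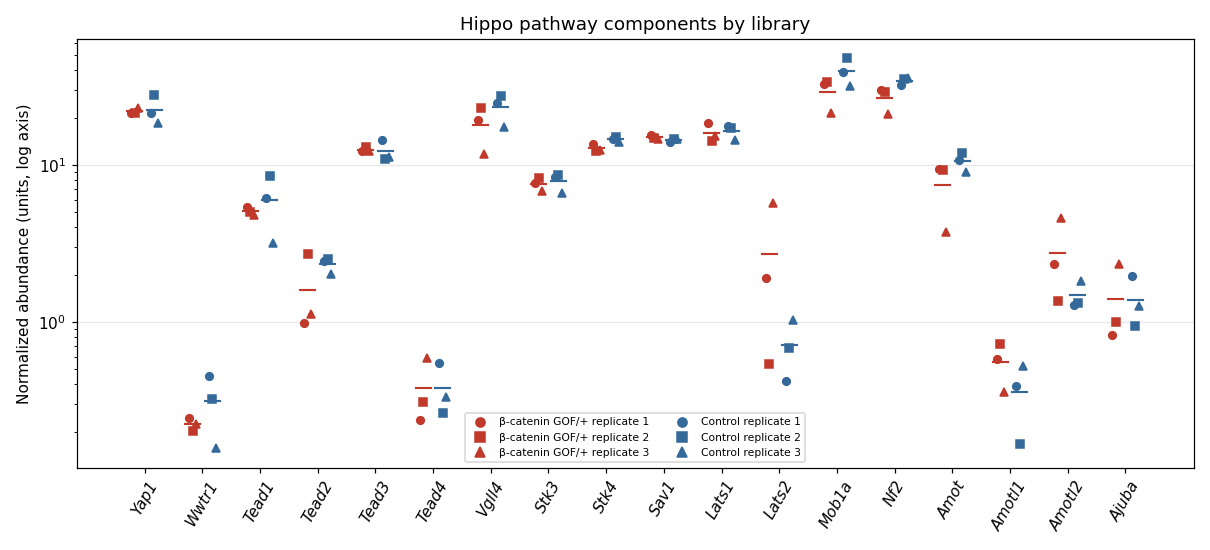
Normalized abundance in units (log axis) of the 18 pathway components in each library, β-catenin GOF/+ in red on the left and control in blue on the right of each gene; symbols mark replicates 1 to 3 and bars the group mean. Yap1 lies between 18.5 and 27.7 units and Wwtr1 below 0.5 units in every library, the TEAD genes span Tead3 at about 12 units to Tead4 under 0.6 units, and Lats2 reaches 5.68 units in β-catenin GOF/+ replicate 3 against at most 1.90 units elsewhere.

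In the kinase core, Lats2 had the largest difference and the other 5 genes differed by less than 0.5 on the log2 scale. Stk4, which encodes the kinase MST1, had 13.5, 12.3 and 12.5 units in β-catenin GOF/+ libraries against 14.6, 15.1 and 13.9 units in control libraries. All 3 β-catenin GOF/+ values lay below all control values, but the log2 difference was -0.18 ± 0.12 (SE; adjusted p = 0.614 in limma). Stk3, which encodes the related kinase MST2, had 7.61, 8.22 and 6.79 units in β-catenin GOF/+ libraries against 8.35, 8.60 and 6.65 units in control libraries. Stk4 exceeded Stk3 in 6 of 6 libraries, by 1.49 to 2.09 times.

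Sav1, the scaffold of the MST kinases, varied least of the core across the 6 libraries. It had 15.5, 14.8 and 14.57 units in β-catenin GOF/+ libraries against 14.1, 14.6 and 14.57 units in control libraries. The groups did not overlap, but the gap between them was smaller than the digits printed and the log2 difference was 0.052 ± 0.12 (SE; adjusted p = 0.870 in limma). Mob1a, which encodes the LATS cofactor MOB1A, had 32.5, 33.7 and 21.4 units in β-catenin GOF/+ libraries against 38.8, 47.6 and 31.8 units in control libraries. The groups overlapped through control replicate 3, and the log2 difference of -0.43 ± 0.23 became -0.23 without β-catenin GOF/+ replicate 3 (SE; adjusted p of 0.590 and 0.938 in limma).

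The 2 LATS genes encode the kinases that phosphorylate YAP. Lats1 had 18.3, 14.2 and 15.2 units in β-catenin GOF/+ libraries against 17.7, 17.1 and 14.3 units in control libraries, with overlapping groups. Lats2, which is itself a YAP target, had 1.90, 0.542 and 5.68 units in β-catenin GOF/+ libraries against 0.421, 0.686 and 1.03 units in control libraries. Replicates 1 and 3 of β-catenin GOF/+ lay above every control library and replicate 2 lay within the control range. The log2 difference of Lats2 was the largest of the 25 at 0.87 ± 0.51 (SE; adjusted p = 0.590 in limma), and it was 0.32 without β-catenin GOF/+ replicate 3 and 1.38 without replicate 2. Lats2 reached the mean of 1 unit needed for testing through the β-catenin GOF/+ libraries alone. Lats1 exceeded Lats2 by 9.66, 26.3 and 2.68 times in β-catenin GOF/+ libraries and by 42.0, 25.0 and 13.9 times in control libraries.

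Among the upstream regulators, Nf2 was lower in all 3 β-catenin GOF/+ libraries and Amot was low in a single library. Nf2, which encodes the membrane-linked activator of LATS called merlin, had 29.8, 29.1 and 21.1 units in β-catenin GOF/+ libraries against 32.2, 35.0 and 35.8 units in control libraries. The groups did not overlap, and the log2 difference was -0.37 ± 0.17 with all libraries and -0.21 without β-catenin GOF/+ replicate 3 (SE; adjusted p of 0.590 and 0.919 in limma). Amot encodes angiomotin, a junction protein that binds YAP. It had 9.35, 9.26 and 3.74 units in β-catenin GOF/+ libraries against 10.8, 11.9 and 9.02 units in control libraries. The third β-catenin GOF/+ library alone lay below the control range, and the log2 difference of -0.53 ± 0.32 became -0.16 without it (SE; adjusted p of 0.594 and 0.938 in limma).

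Amotl2, an angiomotin relative that YAP also induces, ran the other way in that library. It had 2.33, 1.35 and 4.58 units in β-catenin GOF/+ libraries against 1.28, 1.33 and 1.82 units in control libraries. The groups overlapped, and the log2 difference of 0.52 ± 0.32 became 0.18 without β-catenin GOF/+ replicate 3 (SE; adjusted p of 0.601 and 0.952 in limma) and 0.81 without replicate 2. The ratio of Amot to Amotl2 was 4.02, 6.87 and 0.817 in β-catenin GOF/+ libraries and 8.42, 8.97 and 4.96 in control libraries. Amotl1, the third of this family, was not tested, at 0.578, 0.718 and 0.360 units in β-catenin GOF/+ libraries against 0.389, 0.166 and 0.524 units in control libraries. Ajuba, a LIM protein that inhibits LATS, had 0.827, 1.005 and 2.35 units in β-catenin GOF/+ libraries against 1.96, 0.941 and 1.26 units in control libraries, with overlapping groups.

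Over the 15 components tested, 4 were higher and 11 lower in β-catenin GOF/+ crypts, with a median log2 difference of -0.051, against -0.018 over all genes tested. Across all genes, 47.3% were higher. Without β-catenin GOF/+ replicate 3 the median of the same 15 genes was -0.090.

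The classical readouts of YAP were low or at 0 in control crypts, all below 1 unit. Ankrd1, a muscle and stress-response gene, was listed at 0 in all 6 libraries. Ccn2, which encodes the matricellular protein CTGF, had 0.0616, 0.0453 and 0.450 units in β-catenin GOF/+ libraries and was listed at 0 in all 3 control libraries. The steps among the low values place these at 2, 2 and 13 reads in β-catenin GOF/+ libraries and 0 reads in each control library. Ccn1, which encodes the matricellular protein CYR61, had 1.31, 1.13 and 2.90 units in β-catenin GOF/+ libraries against 0.893, 0.832 and 0.784 units in control libraries. This corresponds to 35, 41 and 69 reads in β-catenin GOF/+ libraries and 24, 23 and 30 reads in control libraries. All 3 β-catenin GOF/+ values of Ccn1 lay above the control values, and the log2 difference was 0.54 ± 0.26 (SE; adjusted p = 0.590 in limma) and 0.27 without β-catenin GOF/+ replicate 3. Ccn1 passed the filter on low values through the β-catenin GOF/+ libraries alone, and Ccn2 and Ankrd1 did not pass it.

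**Figure D2:**
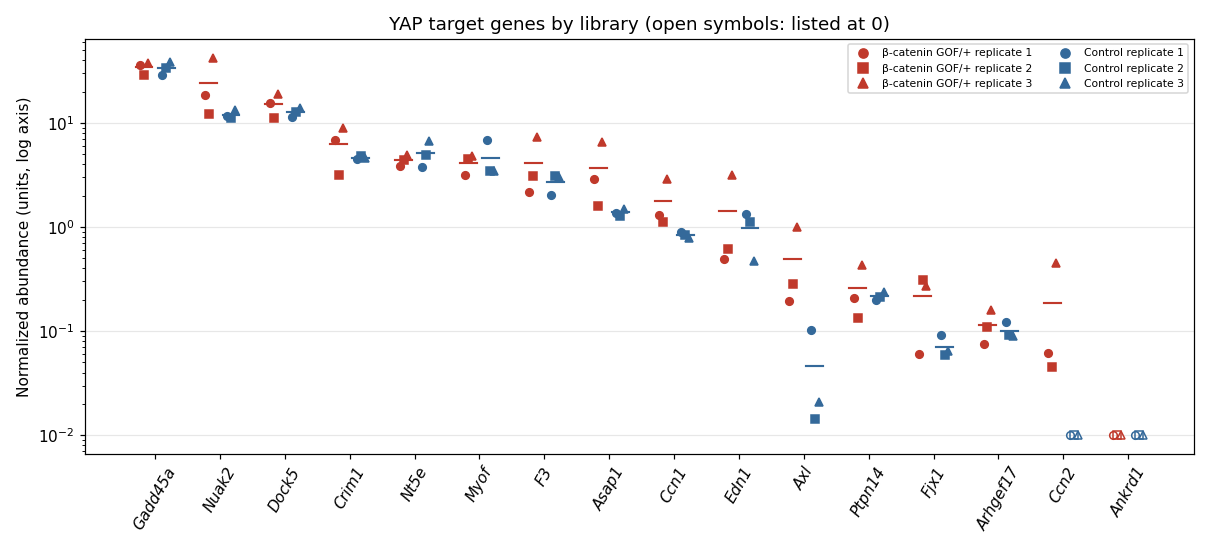
Normalized abundance in units (log axis) of the 16 YAP targets in each library, ordered by mean level, β-catenin GOF/+ in red on the left and control in blue on the right of each gene; symbols mark replicates 1 to 3, bars the group mean and open symbols at the foot a listed value of 0. The triangle of β-catenin GOF/+ replicate 3 is the highest of 6 for 11 of the 16 targets, and Ankrd1 is at 0 throughout.

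The TEAD proteins recognise the bases GGAATG, read as CATTCC on the other strand, and the promoters of these readouts show where that word stands. In RefSeq sequence of build GRCm38.p6, 25 of the 34 genes matched a promoter entry, and the 250 bases before each start were searched on both strands for this single motif. The word occurred in 8 of 15 components and 6 of 10 targets with an entry, against 14.4% of all genes with an entry. A gene counted once if any of its windows held the word, and a match describes letters, not binding. The entries of Ccn1, higher in all 3 β-catenin GOF/+ libraries, Ankrd1, listed at 0, and Axl and Amotl2, highest in β-catenin GOF/+ replicate 3, follow 5′ to 3′ on the gene's own strand with the motif in capitals. Axl and Amotl2 were added to the print after their values were seen. Lats2 and F3 were also highest in β-catenin GOF/+ replicate 3, and their windows did not hold the word. Of the 4 tested components lowest in that library, Vgll4 and Mob1a held the word and Nf2 and Amot did not. Ccn2 had no entry. The windows are chr3:145649986-145650235 on the minus strand for Ccn1, chr19:36119845-36120094 on the minus strand for Ankrd1, chr7:25788734-25788983 on the minus strand for Axl and chr9:102717554-102717803 on the plus strand for Amotl2.
Ccn1: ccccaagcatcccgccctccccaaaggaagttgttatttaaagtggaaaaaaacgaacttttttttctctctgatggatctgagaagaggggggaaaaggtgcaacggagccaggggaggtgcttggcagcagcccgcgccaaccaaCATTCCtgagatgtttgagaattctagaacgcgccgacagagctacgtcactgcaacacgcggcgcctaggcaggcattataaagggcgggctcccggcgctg
Ankrd1: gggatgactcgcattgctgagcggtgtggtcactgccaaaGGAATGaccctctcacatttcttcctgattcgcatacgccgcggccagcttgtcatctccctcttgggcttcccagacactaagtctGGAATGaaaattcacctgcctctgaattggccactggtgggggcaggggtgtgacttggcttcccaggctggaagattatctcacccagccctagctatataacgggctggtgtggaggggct
Axl: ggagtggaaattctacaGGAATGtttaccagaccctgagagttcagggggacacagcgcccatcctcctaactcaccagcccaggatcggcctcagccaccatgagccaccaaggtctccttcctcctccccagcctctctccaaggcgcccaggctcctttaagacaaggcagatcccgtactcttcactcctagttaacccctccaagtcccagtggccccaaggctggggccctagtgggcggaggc
Amotl2: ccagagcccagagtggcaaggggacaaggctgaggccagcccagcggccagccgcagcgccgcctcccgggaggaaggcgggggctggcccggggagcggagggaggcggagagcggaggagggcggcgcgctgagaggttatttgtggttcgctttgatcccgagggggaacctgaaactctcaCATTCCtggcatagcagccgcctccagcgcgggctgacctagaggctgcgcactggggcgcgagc
The first base of the motif lay 103 bases before the start in Ccn1, 210 and 123 bases before it in Ankrd1, 233 in Axl and 65 in Amotl2.

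Axl, a receptor tyrosine kinase gene, was higher in every β-catenin GOF/+ library but fell below the mean of 1 unit needed for testing. With no filter its adjusted p was 0.661 in limma. It had 0.193, 0.285 and 1.00 units in β-catenin GOF/+ libraries against 0.104, 0.0144 and 0.0208 units in control libraries, or 13, 26 and 60 reads in β-catenin GOF/+ libraries against 7, 1 and 2 reads in control libraries. Fjx1, a secreted regulator of planar polarity, had 2, 14 and 8 reads in β-catenin GOF/+ libraries against 3, 2 and 3 reads in control libraries. Of the other low targets, the phosphatase gene Ptpn14, whose product holds YAP in check, had 32, 28 and 60 reads in β-catenin GOF/+ libraries against 31, 34 and 53 reads in control libraries. The exchange factor gene Arhgef17 had 11, 22 and 21 reads in β-catenin GOF/+ libraries against 18, 14 and 19 reads in control libraries. Reads per unit differed between libraries, so the units follow, β-catenin GOF/+ libraries first and control libraries second. Fjx1 had 0.0608, 0.313 and 0.274 units against 0.0909, 0.0589 and 0.0638 units. Ptpn14 had 0.207, 0.133 and 0.436 units against 0.200, 0.213 and 0.240 units. Arhgef17 had 0.0748, 0.110 and 0.161 units against 0.122, 0.0921 and 0.0903 units. The groups overlapped for Fjx1, Ptpn14 and Arhgef17. The transcript lengths behind the read numbers of Axl and Fjx1 matched no annotated one, so those numbers are less certain.

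Asap1 and Nuak2 had the largest log2 differences of the tested targets. Asap1, which encodes a GTPase-activating protein for ARF proteins, had 2.90, 1.59 and 6.49 units in β-catenin GOF/+ libraries against 1.37, 1.29 and 1.49 units in control libraries. Every β-catenin GOF/+ value lay above every control value, and the log2 difference was 0.83 ± 0.37 with all libraries and 0.42 without β-catenin GOF/+ replicate 3 (SE; adjusted p of 0.590 and 0.893 in limma). Nuak2, a kinase gene of the AMPK family that feeds back on YAP, had 18.7, 12.1 and 42.3 units in β-catenin GOF/+ libraries against 11.6, 11.1 and 13.4 units in control libraries. The groups overlapped through β-catenin GOF/+ replicate 2, and the log2 difference of 0.78 ± 0.41 became 0.31 without replicate 3 (SE; adjusted p of 0.590 and 0.929 in limma).

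In F3, Edn1 and Crim1 the direction or the size depended on single libraries. F3, which encodes tissue factor, the starter of blood clotting, had 2.16, 3.06 and 7.29 units in β-catenin GOF/+ libraries against 2.03, 3.12 and 3.02 units in control libraries. Edn1, which encodes the peptide endothelin 1, had 14, 24 and 80 reads in β-catenin GOF/+ libraries against 38, 33 and 19 reads in control libraries. In units, Edn1 had 0.492, 0.621 and 3.16 in β-catenin GOF/+ libraries against 1.33, 1.12 and 0.467 in control libraries. Crim1, a membrane protein gene that binds bone morphogenetic proteins, had 6.86, 3.14 and 8.88 units in β-catenin GOF/+ libraries against 4.47, 4.804 and 4.65 units in control libraries. Groups overlapped for all 3, and without β-catenin GOF/+ replicate 3 the log2 differences of 0.36 ± 0.36, 0.16 ± 0.43 and 0.28 ± 0.31 (SE; adjusted p of 0.698, 0.896 and 0.724 in limma) became -0.042, -0.32 and 0.016. Crim1 was 0.64 without β-catenin GOF/+ replicate 2 and 0.18 without replicate 1. F3 was 0.65 without β-catenin GOF/+ replicate 1 and 0.22 without control replicate 1. Edn1, the lowest of these genes, was 0.42 and 0.36 without β-catenin GOF/+ replicates 1 and 2, and 0.29 and -0.043 without control replicates 1 and 3. Edn1 passed the filter on low values through the β-catenin GOF/+ libraries alone.

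The groups also overlapped for the remaining 4 tested targets. Dock5, an exchange factor gene for RAC, had 15.5, 11.2 and 19.2 units in β-catenin GOF/+ libraries against 11.5, 12.8 and 14.0 units in control libraries. Gadd45a, a growth arrest and DNA damage gene with inputs other than YAP, was the most abundant target, at 36.4, 28.7 and 38.0 units in β-catenin GOF/+ libraries against 28.7, 33.4 and 38.8 units in control libraries. Nt5e, which encodes the ecto-enzyme CD73, had 3.88, 4.37 and 4.96 units in β-catenin GOF/+ libraries against 3.74, 4.97 and 6.77 units in control libraries. Their log2 differences were 0.22 ± 0.21, 0.031 ± 0.17 and -0.16 ± 0.21 (SE; adjusted p of 0.683, 0.956 and 0.763 in limma). Dock5 was 0.047 without β-catenin GOF/+ replicate 3 and 0.41 without replicate 2. Nt5e was -0.094 without β-catenin GOF/+ replicate 1, and -0.34 and 0.017 without control replicates 1 and 3. Myof, the membrane repair gene myoferlin, had 3.16, 4.47 and 4.85 units in β-catenin GOF/+ libraries against 6.92, 3.45 and 3.44 units in control libraries, with its highest value in control replicate 1.

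Over the 10 targets tested, 8 were higher and 2 lower in β-catenin GOF/+ crypts, with a median log2 difference of 0.25 against -0.018 over all genes tested. Ccn1 and Edn1 are among the 8 and passed the filter on low values through the β-catenin GOF/+ libraries alone, so this count and median lean towards higher values. Without β-catenin GOF/+ replicate 3 the median of the same 10 genes was -0.013, with 5 of them higher. Over all 16 targets, low ones included, the median was 0.20 with all libraries and 0.0082 without it.

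**Figure D3:**
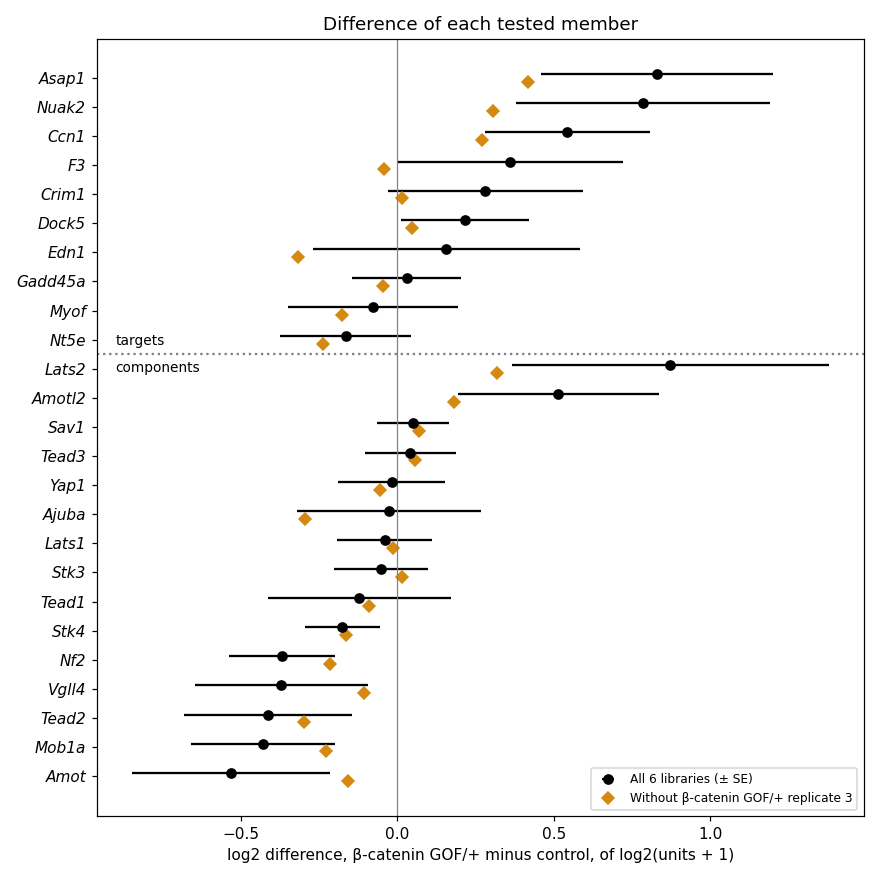
Log2 difference of log2(units + 1), β-catenin GOF/+ minus control, for the 25 tested genes, with targets above the dotted line and components below; black points with bars are the fit to all 6 libraries ± SE and orange diamonds leave out β-catenin GOF/+ replicate 3. The diamonds of Lats2, Asap1, Nuak2, Amotl2 and Ccn1 lie nearer 0 than the points, and those of F3, Edn1, Gadd45a and Stk3 lie on the other side of 0.

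β-Catenin GOF/+ replicate 3 had the highest value of the 6 libraries for 7 of the 10 targets tested and 3 of the 15 components tested, against 29.7% of all genes tested. Of these, Ccn1, Edn1 and Lats2 passed the filter on low values through the β-catenin GOF/+ libraries and not without replicate 3, so its place at the top is partly built into the count. With the untested genes included, it was highest for 11 of 16 targets. It had the lowest value for 0 of 10 targets and 4 of 15 components, Vgll4, Mob1a, Nf2 and Amot, against 36.4% of all genes tested. The mean deviation of the 10 targets from the control mean, on the log2 scale, was 0.12, -0.075 and 0.84 in β-catenin GOF/+ libraries against -0.020, -0.012 and 0.032 in control libraries. Replicates 1 and 2 of β-catenin GOF/+ lay close to the control range and replicate 3 far above it. For the 15 components the same deviation was -0.045, -0.085 and -0.082 in β-catenin GOF/+ libraries against 0.036, 0.094 and -0.13 in control libraries, with overlapping groups.

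Other gene lists also had their highest values in β-catenin GOF/+ replicate 3, and their part in the target values was not tested. Fibroblast markers, genes of the stroma below the epithelium such as Col1a2, Col3a1 and Dcn, summed to 24.7, 20.5 and 45.0 units in β-catenin GOF/+ libraries against 7.92, 5.27 and 8.90 units in control libraries. Of 11 markers, 6 were tested and 0 passed the adjusted threshold, and several of the 6 passed the filter through β-catenin GOF/+ libraries alone. Pdgfra was listed at 0 in every control library, Mgp in 2 of 3 and Col1a2 in 1 of 3. Pdgfrb overlapped between groups, at 0.315, 0.396 and 1.135 units in β-catenin GOF/+ libraries against 0.640, 0.305 and 0.761 units in control libraries. Vim made up most of the control sums, at 6.16, 4.53 and 6.49 units. It had 8.06, 6.71 and 14.8 units in β-catenin GOF/+ libraries. All 3 β-catenin GOF/+ libraries, not just replicate 3, were above the controls in the fibroblast sum. Immune markers summed to 31.8, 21.3 and 96.0 units in β-catenin GOF/+ libraries against 39.0, 25.4 and 63.8 units in control libraries, with 0 of 8 tested markers past the threshold. Endothelial markers were low, with sums of 0.835, 0.668 and 2.58 units in β-catenin GOF/+ libraries against 1.14, 0.492 and 0.963 units in control libraries. Pecam1 reached 1.535 units in β-catenin GOF/+ replicate 3. Cdh5 and Kdr, which are defining, were at most 0.0808 and 0.094 units in any library. Smooth muscle markers summed to 1.57, 0.853 and 3.81 units in β-catenin GOF/+ libraries against 0.290, 0.184 and 0.413 units in control libraries, with 0 of 6 high enough to be tested.

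Immediate early genes are switched on rapidly by growth factors and by tissue handling. Their mean deviation was 0.66, 0.43 and 1.67 in β-catenin GOF/+ libraries against 0.018, -0.0018 and -0.016 in control libraries, with all 13 tested genes higher and 0 past the adjusted threshold. Their median log2 difference was 0.86 with all libraries and 0.44 without β-catenin GOF/+ replicate 3, over 12 genes. The thirteenth, Nr4a1, passed the filter through the β-catenin GOF/+ libraries alone. Egr1 and Junb had the smallest p of that list, with log2 differences of 1.63 ± 0.30 and 1.67 ± 0.49 (SE; adjusted p of 0.396 and 0.590 in limma), and Junb was 1.07 without replicate 3. Fetal and regeneration genes deviated by 0.47, 0.58 and 2.83 in β-catenin GOF/+ libraries against 0.19, -0.30 and 0.11 in control libraries, with 0 of 10 tested genes past the adjusted threshold. All 10 were higher, but Spp1, Anxa1 and Ereg reached the filter through the β-catenin GOF/+ libraries alone. The median log2 difference was 1.26 with all libraries and 0.49 without β-catenin GOF/+ replicate 3, over 9 genes, where Ly6a and Krt7 were lower at -0.81 and -0.25. The smallest p belonged to the osteopontin gene Spp1 and to Anxa1, with log2 differences of 1.77 ± 0.26 and 1.69 ± 0.56 (SE; adjusted p of 0.249 and 0.590 in limma). Without replicate 3, Spp1 was 1.73 and Anxa1 was too low to be tested.

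**Figure D4:**
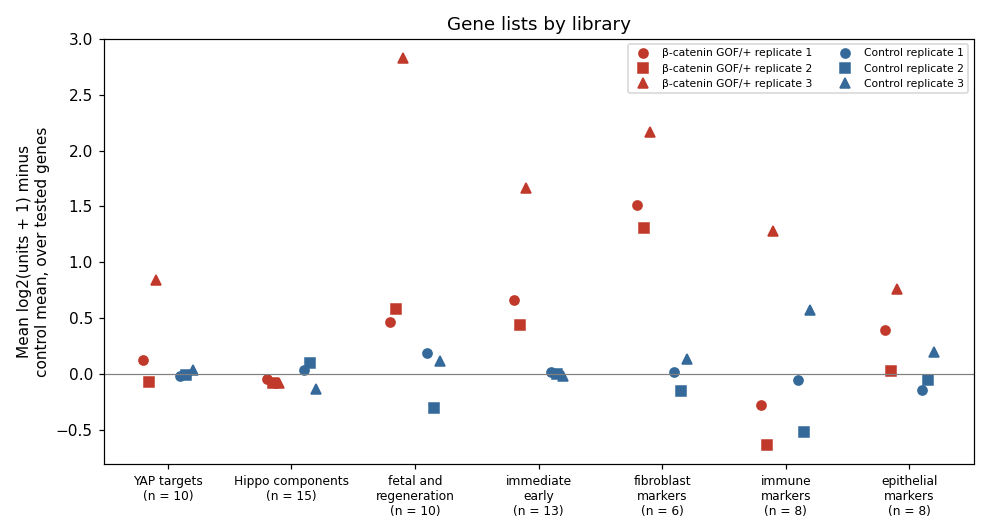
Mean over the tested genes of each list of log2(units + 1) minus the control mean (vertical axis, log2 scale), in each library, β-catenin GOF/+ in red on the left and control in blue on the right; n is the number of tested genes. YAP targets lie at 0.84 in β-catenin GOF/+ replicate 3 and between -0.075 and 0.12 in the other 5 libraries, while the components stay between -0.13 and 0.094 in all 6.

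The wider pathway gave no gene past the adjusted threshold. A further 13 genes were the MOB1A relative Mob1b and kinases that act on LATS or resemble it, such as the MAP4K and TAO kinases. All 13 were tested, 4 were higher and 9 lower, and the median log2 difference was -0.084. Taok3 and Map4k3 had the smallest p, with log2 differences of 0.19 ± 0.13 and -0.21 ± 0.17 (SE; adjusted p of 0.614 and 0.634 in limma), which became 0.11 and -0.11 without β-catenin GOF/+ replicate 3. Of the polarity and junction proteins upstream of the cascade, 10 of 15 were tested, 9 were higher and 1 lower, with a median log2 difference of 0.22 and 0.11 without β-catenin GOF/+ replicate 3. Rassf1, which encodes a binding partner of the MST kinases, had 22.2, 21.6 and 40.8 units in β-catenin GOF/+ libraries against 18.8, 14.5 and 18.0 units in control libraries. The groups did not overlap, and the log2 difference of Rassf1 was 0.64 ± 0.26 with all libraries and 0.35 without β-catenin GOF/+ replicate 3 (SE; adjusted p of 0.590 and 0.842 in limma).

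The STRIPAK complex, a phosphatase assembly that opposes the MST kinases, had 9 of 10 genes tested, 6 higher and 3 lower, with a median log2 difference of 0.032. Sike1 and Strn had the smallest p, with log2 differences of -0.30 ± 0.18 and 0.21 ± 0.17 (SE; adjusted p of 0.598 and 0.644 in limma), and were -0.19 and 0.31 without β-catenin GOF/+ replicate 3. The TEAD cofactor genes Vgll1, Vgll2 and Vgll3 all lay below 0.1 units in every library. Of 12 further genes that YAP can induce in other cells, 5 were tested, all of them higher, with a median log2 difference of 0.29. Areg, an EGF receptor ligand gene that the regeneration list also holds, had 6.86, 4.60 and 105.5 units in β-catenin GOF/+ libraries against 1.005, 0.716 and 1.65 units in control libraries, without overlap. Its log2 difference was 3.00 ± 1.04 with all libraries and 1.67 ± 0.25 without β-catenin GOF/+ replicate 3 (SE; adjusted p of 0.590 and 0.270 in limma). Tagln, which smooth muscle also expresses, had 3.65, 2.32 and 7.26 units in β-catenin GOF/+ libraries against 2.55, 1.81 and 3.07 units in control libraries, with overlap, and its log2 difference of 0.55 became 0.19 without β-catenin GOF/+ replicate 3. Among the untested genes, the secreted matrix gene Ccdc80 was picked with its values known and had no overlap between groups. Ccdc80 had 0.861, 0.735 and 1.63 units in β-catenin GOF/+ libraries against 0, 0 and 0.0274 units in control libraries. With no filter its adjusted p was 0.317 in limma.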

How the data were processed

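Poly-A RNA of mouse crypt epithelium was sequenced (Illumina) in 6 libraries, as the labels' protocols state. The authors deposited 1 normalized signal value for every gene and library. The submitters' processing notes name kallisto 0.46.1, DESeq2 1.40.1 and build mm9 with no role or order, and the annotation is not given in the sources used here. Control columns match sample titles by name. The remaining columns, named for a heterozygous exon change, were assigned to the only other group, by number.

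Low values of single-transcript genes fell in steps inversely proportional to length, with 72.4 to 76.2% within 0.1 of a whole read. The step size gave each library's reads per unit. For 7 low genes all 6 values were within 0.05 of whole reads, taken as the smallest whole numbers possible; most other genes gave none, so no count model was run, and absolute depth was not used. No counting interval is given.

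Genes averaging 1 unit or more were tested with limma 3.58.1 in R 4.3.3 on log2(units + 1), with a trended prior variance, no covariate beside group, and Benjamini-Hochberg correction across 11837 genes. Log2 differences understate the change of low genes. The test was checked on simulated data. Members and lists were chosen with earlier results of these data known. All 34 genes are described, and of each other pathway list the 2 tested genes with the smallest p, except 1 that is not reported here. Same-numbered libraries deviated together in 2 of 3 pairs only (r of -0.29, 0.33 and 0.32), so no block was used. How reads shared by close relatives such as Mob1a and Mob1b were assigned is not given. Summaries used pandas 2.3.3 and NumPy 2.4.6 under Python 3.11.15, and plots used matplotlib 3.10.9. Promoters came from RefSeq (GRCm38.p6), a build other than mm9, and no mm9 coordinates were used. Alternatives rescaled the values, changed the filter and pseudocount, weighted or left out libraries, and added a replicate block or sex; the whole-read description was added after the data were seen.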

Additional observations from a re-analysis of the deposited data

How the results depend on the processing

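Of the 25 tested genes, 0 passed the adjusted threshold in limma in any of the 15 alternatives: no filter or one at 5 units, 2 rescalings (upper quartile, median of ratios), a pseudocount of 0.1 or of 5, weights per library, sex as a second term, a replicate block, and each library left out. Their lowest adjusted p was 0.119, for Asap1 with array weights. The estimation of these weights stopped before its convergence tolerance, so all values with array weights are less certain. Over all genes, 0 higher and 2 lower became 1 and 2 with a pseudocount of 0.1, 1 and 0 with a pseudocount of 5, 20 and 7 with array weights, 0 and 0 with no filter and 0 and 0 with sex as a second term. With the replicate block the counts were also 0 and 0 over all genes, and the medians of targets and components stayed at 0.25 and -0.051. Leaving out each library gave 0 to 2 higher and 0 to 3 lower genes, component medians of -0.15 (without control replicate 3) to -0.026 and target medians of -0.013 (without β-catenin GOF/+ replicate 3, 8 genes) to 0.44. Some log2 differences changed sign, F3 (0.36) and Edn1 (0.16) among them: with array weights Tead3 was -0.033, Lats1 0.098, Edn1 -0.38 and F3 -0.075, and with sex as a second term Yap1 was 0.036, Tead1 0.062, Stk3 0.0045 and Lats1 0.053. The cause was not tested. Leaving out each library gave ranges across 0 for 11 genes: Yap1 -0.14 to 0.14, Tead1 -0.45 to 0.15, Tead3 -0.026 to 0.16, Stk3 -0.15 to 0.014, Lats1 -0.14 to 0.032, Ajuba -0.30 to 0.14, Nt5e -0.34 to 0.017, Myof -0.22 to 0.20, Gadd45a -0.074 to 0.15, Edn1 -0.043 to 0.42 and F3 -0.042 to 0.65. Lats2, Ccn1 and Edn1 fell below the filter without β-catenin GOF/+ replicate 3 and were then not tested. With 3 libraries a group and Ccn2 at 2 reads in 2 of them, small shifts of low genes may have gone undetected. Larger shifts, and shifts of more abundant genes, may have gone undetected too. Nuak2 and Areg, with values given above, had much higher means in β-catenin GOF/+ libraries and did not pass the adjusted threshold. Both had their highest value in β-catenin GOF/+ replicate 3. The count of 0 among the 25 tested genes therefore does not show that they were unchanged.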
